A study of Homo sapiens with 6 samples.

Results

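Interferon-stimulated genes are the genes that cells switch on after an interferon binds its receptor, and nucleic acid sensors are the proteins that detect foreign or misplaced RNA and DNA and start interferon production. The 39 genes described here were chosen by gene symbol from both groups, and all 39 were found among the 58735 genes of the count table. They comprised 3 RNA sensors, 5 DNA sensors, 4 transcription factors and 4 genes each of the IFIT and OAS families. The others were 3 genes of the IFITM family, 7 other antiviral effectors, ISG15 with USP18 and PARP9, and 6 further interferon-induced genes. RNA was measured by non-stranded mRNA-seq in UE7T-9, an immortalised human mesenchymal stem cell line from bone marrow, and the comparison asked which genes differed when SRRM4, a splicing factor best known from neurons, was targeted. Libraries 1, 2 and 3 of the control came from UE7T-9 cells of WT genotype, and libraries 1, 2 and 3 of the SRRM4 KO came from UE7T-9 cells that had received lenti-CRISPR v2 with an SRRM4 guide, had been selected with puromycin and had been cloned by limiting dilution. Both lines were kept in D-MEM. The KO line was thus a single clone, and by the study's own account it retained part of its SRRM4 protein. The methods name no vector or guide for the control, although the study's discussion mentions lentivirus infection as a possible influence on it, so whether the control carried a vector is unclear. SRRM4, the selection, the clone and any difference in vector cannot be told apart. SRRM4 itself had 0 counts in all 6 libraries, and its RNA therefore gave no check of the knockout. Nothing in the labels says that the libraries of a group came from separate cultures, so the p-values measure the spread between these libraries only.

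In the textbook pathway, RIG-I and MDA5 detect viral RNA, and cGAS detects DNA in the cytosol and signals through STING. Both routes activate IRF transcription factors that switch on interferon genes. Secreted interferon then acts through JAK kinases on a transcription factor complex that contains STAT2 and IRF9 and binds the interferon-stimulated response element (ISRE) in promoters, and the induced proteins block virus entry, translation and replication. Interferon-gamma acts on a different element, the gamma-activated site (GAS).

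The ISRE core, searched as GAAA followed by 2 bases of any kind and GAAA on both strands, was present in the promoter windows of most of these genes. The windows ran from 250 bases before to 50 bases after the annotated start and came from RefSeq (GRCh38.p14), which had an entry for 30 of the 39 genes. Every start listed for a gene was searched. No window was used for CGAS, TMEM173, IRF7, IFIT2, OAS2, OASL, IFITM2, MX2 and USP18. The core was found in 20 of the 30 genes (66.7%), beside 4.38% of all 27305 genes of that table. The GAS pattern TTCNNNGAA was found in 9 of the 30 (30.0%), beside 9.38% of all genes. In IFI27, IFITM1, BST2 and MX1 a GAS match shared bases with an ISRE core. A match describes letters in a window and is not a measured binding site. Cores with another spacing were not searched, so a missing match does not mean that no element is present.

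Stretches that end at the base before the annotated start are shown for 6 genes, with the ISRE core in capitals (TTTC at both ends where it lies on the other strand), because all 6 genes rose and their cores differ in number, spacing and orientation. IFIT1 (chr10:89392503-89392622, plus strand) and IFIT5 (chr10:89414508-89414567, plus strand) lie next to each other, and both stretches hold 2 cores, at positions -116 to -107 and -103 to -94 of IFIT1 and -45 to -36 and -19 to -10 of IFIT5. IFIT5 has a further core across its start, at -4 to 5, which is not shown.
IFIT1: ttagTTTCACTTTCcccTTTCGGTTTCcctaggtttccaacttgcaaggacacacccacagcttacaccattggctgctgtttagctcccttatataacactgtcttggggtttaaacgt
IFIT5: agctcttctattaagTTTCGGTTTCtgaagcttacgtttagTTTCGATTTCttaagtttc
ISG15 (chr1:1013377-1013496, plus strand) holds a pair of overlapping cores, IFI6 (chr1:27672193-27672352, minus strand) holds 3 separate cores, and IFI27 (chr14:94110616-94110735, plus strand) holds 2 cores with a GAS match at -101 to -93 that shares bases with both.
ISG15: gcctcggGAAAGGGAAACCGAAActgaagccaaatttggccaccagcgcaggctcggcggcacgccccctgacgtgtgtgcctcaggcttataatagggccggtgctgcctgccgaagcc
IFI6: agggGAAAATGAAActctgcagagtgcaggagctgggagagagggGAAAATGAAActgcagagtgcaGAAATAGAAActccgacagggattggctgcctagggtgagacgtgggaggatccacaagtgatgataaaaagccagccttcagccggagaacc
IFI27: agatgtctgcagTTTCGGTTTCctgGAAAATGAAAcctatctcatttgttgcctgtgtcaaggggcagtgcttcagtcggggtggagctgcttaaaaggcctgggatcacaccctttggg
IFI44L (chr1:78620278-78620447, plus strand) holds 2 cores with the same letters, at -164 to -155 and -73 to -64.
IFI44L: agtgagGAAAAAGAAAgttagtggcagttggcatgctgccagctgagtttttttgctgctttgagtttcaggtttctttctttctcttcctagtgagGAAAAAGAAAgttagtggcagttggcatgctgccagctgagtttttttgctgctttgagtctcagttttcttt

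Most of the 39 genes were higher in the SRRM4 KO libraries. Levels are CPM values, the counts of a gene per 1000000 counts of the library after TMM scaling, a gene passed the test with an adjusted p under 0.05 in edgeR's quasi-likelihood test over 15341 genes, and a gene was called when its log2 fold change (KO minus control) was also beyond 1. Of the 38 genes with enough counts to test, 28 rose, 3 fell and 7 did not pass, whereas 20.7% of all tested genes rose and 20.9% fell. Called higher were 21 of the 38 and called lower 0, beside 5.45% and 7.14% of all tested genes. All KO libraries lay above all control libraries for 30 of the 38 and below them for 4, beside 25.9% of all tested genes in each direction. The median log2 fold change of the 38 was 1.18, and that of all tested genes was -0.01. The 39 genes were chosen with earlier results of these data known, so these shares and medians describe them and are not a test. Among the genes with at least 10 counts in every library, which leaves out PYHIN1, 27 rose, 20 were called higher and the median was 1.11. Summed over the 39 genes, the level was 2296, 2386 and 2315 CPM in the control libraries and 4226, 3756 and 4016 CPM in the KO libraries. In bulk RNA, more cells with a high level and more RNA in each cell cannot be told apart.

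**Figure D1:**
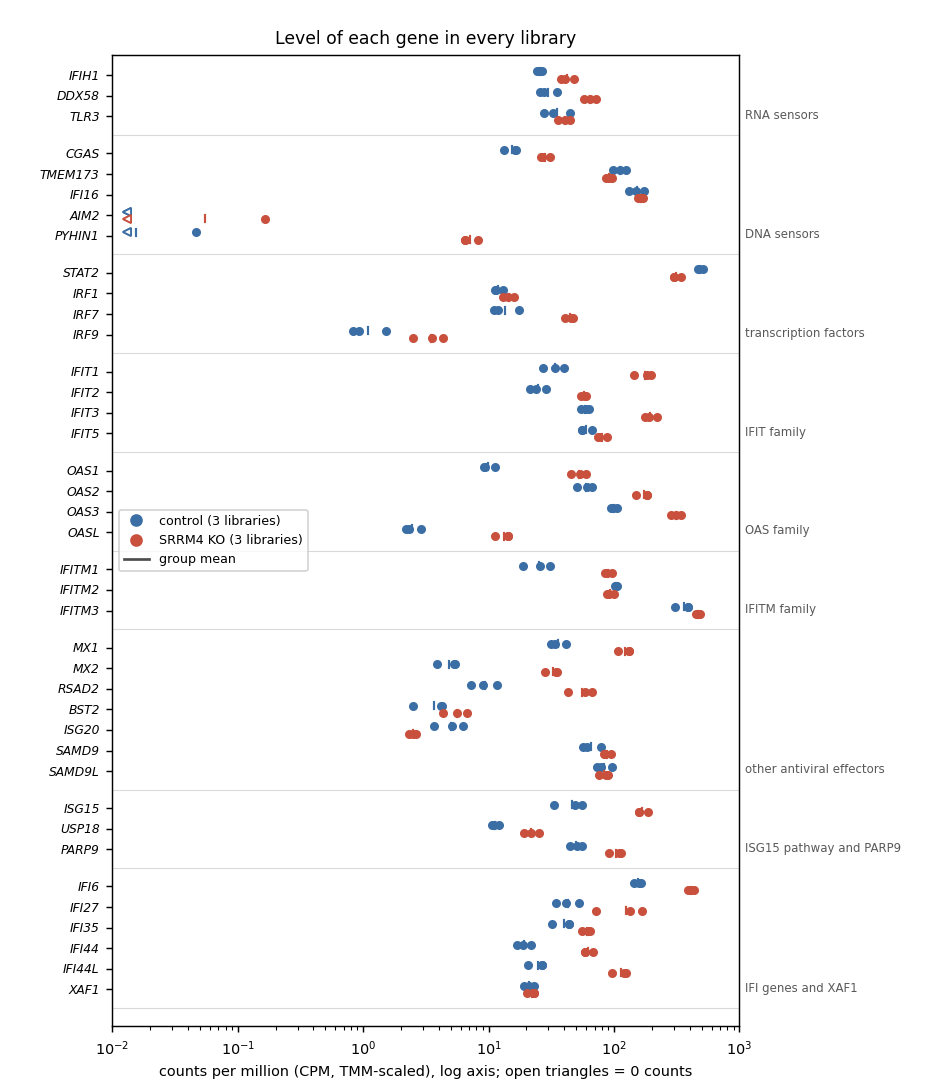
Level of each of the 39 genes in every library, in CPM on a log axis, grouped by role. Blue points are the 3 control libraries, red points the 3 SRRM4 KO libraries, short ticks the group means and open triangles libraries with 0 counts. The KO points lie to the right of all control points for 30 genes and to the left for 4, STAT2, ISG20, TMEM173 and IFITM2.

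The libraries were of similar depth, with 21496117 to 23868323 counts. At this depth 3 counts correspond to 0.123 to 0.139 CPM, a floor that covers counting error only. Control library 1 stood apart from the others: it had counts in 22403 genes, the other 5 in 20127 to 20674, and its chi-square per degree of freedom against control libraries 2 and 3 was 20.9 and 21.4, while the other replicate pairs gave 4.93 to 9.13. Without it, 30 of the 39 genes rose and 3 fell. Among the 39 genes it was the lowest control for some, such as ISG15 and IFITM1, and the highest for others, such as TLR3, DDX58 and SAMD9. The median log2 ratio to the control mean over the 28 genes that rose was -0.01, 0.03 and -0.09 in the control libraries and 1.79, 1.58 and 1.60 in the KO libraries. The mesenchymal label was checked on 10 markers, all with more than 3 counts in every library. NT5E and VIM rose (log2 fold changes 0.52 and 0.36), and the other 8 fell, among them THY1 (-2.43), PDGFRB (-2.14) and LEPR (-3.49). Their summed level, mostly collagen I, was 40430 to 44540 CPM in control and 16500 to 18500 CPM in KO.

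Markers of other cell types were read at low levels, and some of them fell strongly in KO. Of 14 leukocyte markers, 8 were at 0 counts in all control libraries and 9 in all KO libraries, and their summed level was 18.5 to 19.4 CPM in control and 14.9 to 17.2 CPM in KO. PTPRC, which marks leukocytes, had at most 2 counts, and LILRA4 and CLEC4C, markers of plasmacytoid dendritic cells, a main source of interferon, had 0 counts in all 6 libraries. CD14 carried most of that sum, with 324 to 392 counts per library. The 6 endothelial markers summed to 22.7 to 26.1 CPM in control and 4.43 to 5.86 CPM in KO, and the 5 epithelial markers to 1.44 to 2.82 and 1.73 to 3.28 CPM. TEK, an endothelial marker, fell from a mean of 13.7 CPM in control to 0.994 CPM in KO (log2 fold change -3.80). KDR, another endothelial marker, fell from 9.42 to 3.11 CPM (log2 fold change -1.60, adjusted p = 8.09e-06 from the edgeR fit). CD74, a leukocyte marker, had 18, 26 and 55 counts in control and 4, 0 and 0 in KO. The other tested markers of these cell types did not pass. The part of these marker changes in the results was not tested.

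Of the 3 RNA sensors, RIG-I and MDA5 rose, and TLR3 did not pass. DDX58, which encodes RIG-I, measured 35.2, 25.7 and 27.8 CPM in control and 64.1, 57.2 and 72.1 CPM in KO. All KO libraries lay above all controls, and the rise was 2.18-fold (log2 fold change 1.12, SE 0.13, adjusted p = 4.32e-06). IFIH1, which encodes MDA5, a sensor of long double-stranded RNA, measured 26.9, 25.9 and 24.2 CPM in control and 40.7, 37.6 and 47.7 CPM in KO, a rise of 1.63-fold (log2 fold change 0.71, SE 0.11, adjusted p = 0.000146). The IFIH1 groups did not overlap either. TLR3, the endosomal receptor for double-stranded RNA, measured 27.6 to 44.7 CPM in control and 35.7 to 44.5 CPM in KO, and the interval of its log2 difference was -0.12 to 0.53. Its highest control value came from library 1, and without that library TLR3 passed (log2 fold change 0.42, adjusted p = 0.00423).

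Among the DNA sensors the changes went both ways. CGAS, the enzyme that makes the cyclic dinucleotide messenger after binding DNA, measured 16.2, 13.3 and 16.5 CPM in control and 26.8, 30.8 and 26.4 CPM in KO. The groups did not overlap, and CGAS rose 1.82-fold (log2 fold change 0.87, SE 0.13, adjusted p = 7.5e-05). TMEM173, which encodes STING, the receptor of that messenger, measured 97.4, 124 and 111 CPM in control and 96.8, 91.3 and 86.6 CPM in KO. The highest KO value and the lowest control value of TMEM173 nearly touched, and the fall was small (log2 fold change -0.28, SE 0.10, adjusted p = 0.0349). It no longer passed without any 1 library other than control library 1, with adjusted p-values from 0.0517 to 0.179, or with the replicate number as a block (adjusted p = 0.0534). The enzyme and its receptor thus moved in opposite directions, the latter near the threshold.

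PYHIN1, IFI16 and AIM2 are neighbouring genes of the HIN-200 family on chromosome 1 that bind DNA, and they behaved differently. PYHIN1 (chr1:158930796-158977054) had 1, 0 and 0 counts in control and 144, 159 and 181 counts in KO. It entered the test only through its KO counts, so it had to differ. From 1 count against 484, its ratio was 462 with an exact Clopper-Pearson interval of 82.6 to 18300, which covers counting error only. PYHIN1 was thus practically unread in the control and reached 6.46, 6.53 and 8.22 CPM in the KO. IFI16, a nuclear DNA sensor and by far the most abundant of the family here, measured 133 to 174 CPM in control and 156 to 170 CPM in KO, with an interval of the log2 difference of -0.10 to 0.32. It passed only without control library 1 (log2 fold change 0.22, adjusted p = 0.0152). AIM2, the inflammasome sensor of cytosolic DNA, had 0, 0 and 0 counts in control and 0, 4 and 0 in KO and was not tested.

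The transcription factors also split. IRF7, the factor that amplifies interferon production, measured 11.1, 17.5 and 11.9 CPM in control and 47.3, 45.7 and 40.4 CPM in KO. It rose 3.29-fold with no overlap (log2 fold change 1.72, SE 0.16, adjusted p = 4.04e-07). IRF9, the DNA-binding part of the complex with STAT2, measured 0.83, 0.93 and 1.52 CPM in control and 4.31, 3.53 and 2.50 CPM in KO. Its groups did not overlap, and it rose 3.14-fold (log2 fold change 1.65, SE 0.35, adjusted p = 0.00148). In the annotation IRF9 shares 48.4% of its exonic bases with AL136295.5 on the same strand, which had 12, 9 and 10 counts in control and 30, 24 and 9 in KO, so the counts of both genes cannot be fully separated. STAT2, its partner in the complex, moved the other way, from 464, 508 and 475 CPM in control to 343, 301 and 301 CPM in KO. All KO libraries were below all controls (log2 fold change -0.62, SE 0.08, adjusted p = 1.58e-05). IRF1, a factor induced chiefly by interferon-gamma, measured 11.2 to 13 CPM in control and 13 to 16 CPM in KO and did not pass (interval of the log2 difference -0.02 to 0.59).

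All 4 genes of the IFIT family rose, and the size of the rise differed widely between them. IFIT proteins bind foreign RNA and block its translation, and their genes lie side by side at chr10:89283694-89421001. IFIT1 measured 39.7, 34.1 and 27.1 CPM in control and 184, 145 and 197 CPM in KO, a rise of 5.21-fold (log2 fold change 2.38, SE 0.14, adjusted p = 4.25e-09). IFIT3, which stabilises IFIT1, measured 60.01, 62.7 and 54.8 CPM in control and 189, 176 and 220 CPM in KO, a rise of 3.30-fold (log2 fold change 1.72, SE 0.10, adjusted p = 3.61e-09). For both genes the lowest KO library lay well above the highest control. IFIT2 measured 28.5, 21.6 and 23.8 CPM in control and 59.7, 54.4 and 58.8 CPM in KO, a rise of 2.34-fold (log2 fold change 1.23, SE 0.11, adjusted p = 5.94e-07). IFIT5 measured 66.9, 55.6 and 56.1 CPM in control and 74.4, 76.2 and 88.2 CPM in KO, a rise of 1.34-fold (log2 fold change 0.42, SE 0.10, adjusted p = 0.00434). The 21 tested genes near IFIT5, members left out, had a median log2 fold change of 0.27. The 4 genes showed no overlap between groups. The intervals of the log2 fold change, 2.08 to 2.68 for IFIT1 and 0.20 to 0.64 for IFIT5, lay far apart, although both promoters hold the ISRE core. IFIT1B, a relative of IFIT1, had 0 counts in all libraries.

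All 4 genes of the OAS family were called higher. OAS1, OAS2 and OAS3 make the 2-5A messenger that activates RNase L after binding double-stranded RNA, whereas OASL lacks that activity and enhances RIG-I signalling. OAS1 measured 9.41, 9.14 and 11.2 CPM in control and 53.2, 45.0 and 59.6 CPM in KO, a rise of 5.31-fold (log2 fold change 2.41, SE 0.14, adjusted p = 2.58e-09). OAS2 measured 66.4, 61.1 and 51.0 CPM in control and 184, 149 and 184 CPM in KO, a rise of 2.90-fold (log2 fold change 1.53, SE 0.11, adjusted p = 4.9e-08). OAS1 and OAS2 lie with OAS3 in 1 cluster at chr12:112906777-113011723. OAS3 measured 95.3, 105 and 97.7 CPM in control and 340, 287 and 315 CPM in KO, a rise of 3.16-fold (log2 fold change 1.66, SE 0.09, adjusted p = 1.26e-09). OASL lies apart at chr12:121019111-121039242 and measured 2.21, 2.88 and 2.33 CPM in control and 14.3, 11.3 and 14.2 CPM in KO, a rise of 5.34-fold (log2 fold change 2.42, SE 0.19, adjusted p = 9.31e-08). No member of the family overlapped between groups. Per kilobase of exon, OAS3 was the highest of the 4 in both groups, at 12 CPM in control and 38.0 CPM in KO, and OASL the lowest, at 0.70 and 3.77 CPM.

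Of the IFITM genes, which encode membrane proteins that hinder virus entry, IFITM1 rose strongly, IFITM3 rose slightly and IFITM2 did not pass. IFITM1 measured 18.7, 30.7 and 25.7 CPM in control and 96.8, 88.5 and 85.1 CPM in KO. It rose 3.60-fold with no overlap (log2 fold change 1.85, SE 0.14, adjusted p = 7.7e-08). IFITM3 measured 307, 386 and 390 CPM in control and 484, 464 and 452 CPM in KO, a rise of 1.29-fold (log2 fold change 0.37, SE 0.09, adjusted p = 0.00412). Control library 1 was the lowest for both genes. IFITM2 measured 102 to 105 CPM in control and 87.7 to 101 CPM in KO, with an interval of the log2 difference of -0.33 to 0.03. All its KO libraries were below all controls, but the difference missed the threshold (adjusted p = 0.178). IFITM1 and IFITM2 share 351 exonic bases on the same strand, 32.5% of IFITM1 and 22.7% of IFITM2, so their counts are not fully separate.

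Among the other antiviral effectors, MX2 and RSAD2 showed the largest log2 fold changes of the 38 apart from PYHIN1. MX1 and MX2 are GTPases that trap incoming viral particles and lie side by side at chr21:41361943-41459214. MX2 measured 5.40, 5.34 and 3.90 CPM in control and 35.2, 28.1 and 34.5 CPM in KO, a rise of 6.68-fold (log2 fold change 2.74, SE 0.16, adjusted p = 4.17e-09). MX1 measured 33.6, 41.7 and 31.6 CPM in control and 131, 107 and 131 CPM in KO, a rise of 3.46-fold (log2 fold change 1.79, SE 0.12, adjusted p = 1.51e-08). RSAD2, which encodes viperin, measured 11.6, 9.09 and 7.21 CPM in control and 58.2, 42.9 and 66.3 CPM in KO, a rise of 5.99-fold (log2 fold change 2.58, SE 0.18, adjusted p = 2.79e-08). The groups of these 3 genes did not overlap. SAMD9 and SAMD9L are neighbours on chromosome 7 that encode related growth-restraining and antiviral proteins. SAMD9 measured 79.1, 56.9 and 60.4 CPM in control and 84.9, 83.0 and 95.2 CPM in KO, a rise of 1.34-fold (log2 fold change 0.42, SE 0.12, adjusted p = 0.00922). That rise no longer passed without control library 2, control library 3 or KO library 3, with adjusted p-values of 0.0534, 0.0526 and 0.0505. SAMD9L measured 73.4 to 96.6 CPM in control and 76.4 to 88.8 CPM in KO, with an interval of the log2 difference of -0.22 to 0.24. The 22 tested genes near this pair, members left out, had a median log2 fold change of -0.43.

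The last pair of effectors was read at low levels, and only 1 of the pair passed. BST2, which encodes tetherin, the protein that holds budding virus on the cell, measured 2.49 to 4.27 CPM in control and 4.36 to 6.78 CPM in KO. No library overlapped, but the difference missed the threshold (log2 fold change 0.61, SE 0.25, adjusted p = 0.0641), and it passed without KO library 3 (adjusted p = 0.0405). ISG20, an RNA exonuclease, fell from 3.64, 6.22 and 5.06 CPM in control to 2.51, 2.63 and 2.32 CPM in KO. The groups did not overlap (log2 fold change -0.998, SE 0.26, adjusted p = 0.00538). The fall lay just short of a call, and it was called lower without control library 1, KO library 1 or KO library 2 (log2 fold changes of -1.18, -1.01 and -1.05).

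ISG15, the ubiquitin-like protein that is attached to other proteins during an interferon response, rose, and so did USP18 and PARP9. ISG15 (chr1:1001138-1014540) measured 33.5, 55.6 and 48.8 CPM in control and 186, 158 and 157 CPM in KO. It rose 3.63-fold without overlap (log2 fold change 1.86, SE 0.15, adjusted p = 8.69e-08). USP18, the protease that removes ISG15 and damps interferon receptor signalling, measured 11.0, 10.6 and 12.1 CPM in control and 21.7, 19.1 and 25.1 CPM in KO, a rise of 1.95-fold (log2 fold change 0.97, SE 0.14, adjusted p = 5.79e-05). USP41, a near-identical copy of USP18, had 1, 0 and 9 counts in control and 0 in all KO libraries. PARP9, an ADP-ribosyltransferase that works with DTX3L, measured 55.6, 50.3 and 44.3 CPM in control and 113, 90.6 and 110 CPM in KO, a rise of 2.09-fold (log2 fold change 1.06, SE 0.11, adjusted p = 1.81e-06). Neither gene overlapped between groups. PARP9 lay just inside the call and USP18 just outside it. PARP9 was not called without control library 3 or KO library 1 (log2 fold changes of 0.98 and 0.999), and USP18 was called without control library 3 or KO library 2 (1.02 and 1.05). After subtraction of the chromosome median PARP9 was not called (0.95) and USP18 was (1.23).

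The remaining 6 interferon-induced genes include several whose function is less well defined, and 5 of them rose. IFI6, a small mitochondrial and endoplasmic reticulum protein, measured 144, 159 and 165 CPM in control and 434, 408 and 386 CPM in KO, a rise of 2.62-fold (log2 fold change 1.39, SE 0.08, adjusted p = 5.04e-09). IFI44 and IFI44L, neighbours at chr1:78619922-78664078, rose 3.25-fold and 4.62-fold. IFI44L measured 26.8, 26.5 and 20.6 CPM in control and 120, 95.9 and 125 CPM in KO (log2 fold change 2.21, SE 0.13, adjusted p = 3.41e-09). IFI44 measured 18.7, 21.9 and 16.8 CPM in control and 68.0, 59.2 and 59.2 CPM in KO (log2 fold change 1.70, SE 0.12, adjusted p = 2.64e-08). These 3 genes showed no overlap between groups. IFI27 varied most within a group, with 41.7, 34.2 and 53.1 CPM in control and 166, 133 and 71.3 CPM in KO. KO library 3 was well below the other KO libraries and still above all controls (log2 fold change 1.53, SE 0.23, adjusted p = 7e-05), and without that library the log2 fold change was 1.79. IFI35 measured 32.2, 43.4 and 43.7 CPM in control and 64.7, 55.7 and 62.0 CPM in KO, a rise of 1.53-fold without overlap (log2 fold change 0.61, SE 0.12, adjusted p = 0.000811). XAF1, a pro-apoptotic protein that binds XIAP, measured 19 to 23.1 CPM in control and 20.1 to 23.1 CPM in KO, with an interval of the log2 difference of -0.20 to 0.33.

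**Figure D2:**
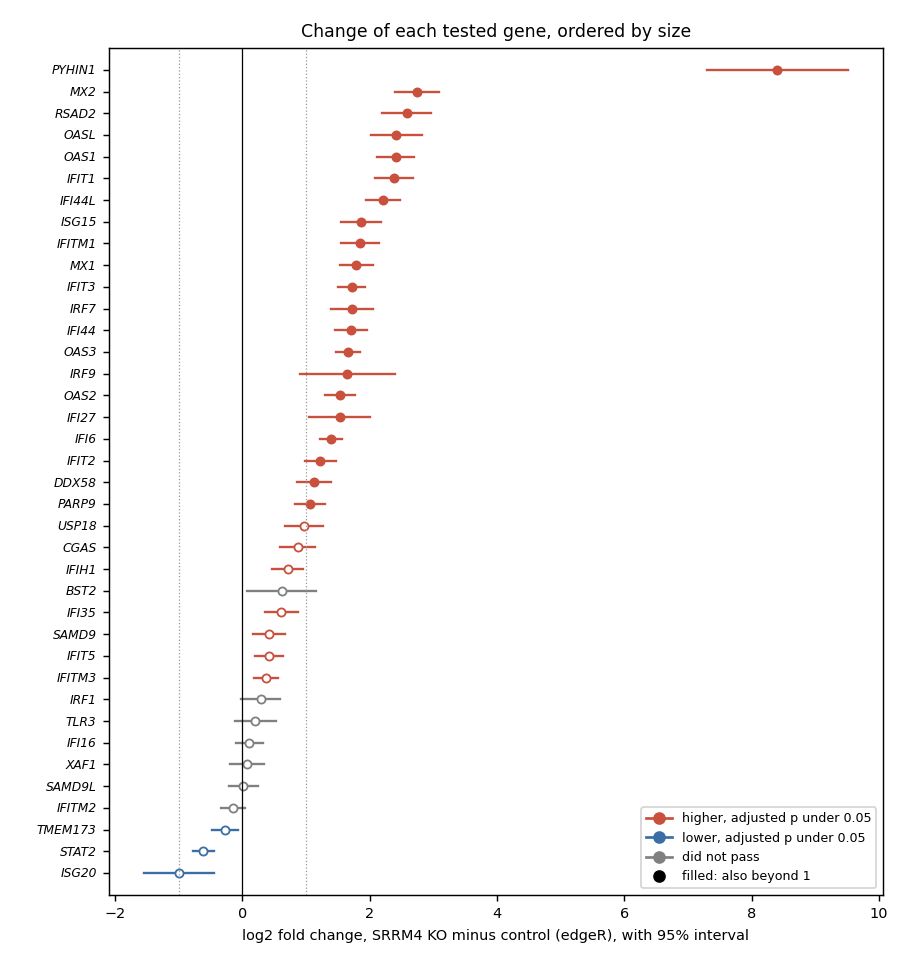
Log2 fold change of the 38 tested genes, SRRM4 KO minus control, with the 95% interval from the edgeR fit, ordered by size. Red marks an adjusted p under 0.05 and higher (28 genes), blue lower (3 genes) and grey not passed (7 genes), filled points are also beyond 1 and dotted lines mark 1 and -1. PYHIN1 lies far to the right because its control libraries held 1 count in all, and its fitted value of 8.41 depends on the prior count.

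Levels between genes were compared as CPM per kilobase of exon. In control, IFITM3 was the highest of the 39 at 268 CPM per kilobase, followed by IFI6 at 180, STAT2 at 79, IFITM2 at 66.9 and ISG15 at 48.8. In KO the order became IFI6 at 473, IFITM3 at 346, ISG15 at 177, IFITM1 at 83.4 and IFIT3 at 73.9, with STAT2 at 51.5. IFI6 thus exceeded IFITM3 in KO on this scale, and the control and KO ranges of each of the 2 genes did not overlap.

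The ISRE core was read against the direction of change as a description. It was present in 16 of 21 genes that rose and had a promoter entry (76.2%), in 1 of 2 that fell and in 2 of 6 that did not pass. Among genes called higher it was present in 12 of 16, and among those that rose without being called in 4 of 5. Both shares rest on few genes. No core with the searched spacing of 2 bases was found in the windows of PYHIN1, OAS1, IRF9, DDX58 and IFI35, all of which rose. BST2 and TLR3, which did not pass, and ISG20, which fell, each held it.

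No interferon gene was read at a level that could be tested. Of 21 interferon ligand genes, 19 had 0 counts in all 6 libraries, among them IFNB1, IFNG and IFNL1. IFNA8 had 1 count, in control library 1. IFNE, an interferon of epithelia, had 7, 1 and 9 counts in control and 7, 7 and 9 in KO. A count of 0 in every library allows up to 0.123 to 0.139 CPM per library.

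Among the receptors and JAK-STAT genes, 1 gene passed the test. Of 15 genes, 13 were tested, 0 rose, 1 fell (7.69%) and 12 did not pass, beside 20.7% higher and 20.9% lower of all tested genes, and the median log2 fold change was -0.04. The gene that fell was IFNGR1, the ligand-binding chain of the interferon-gamma receptor, from 51.9 ± 4.74 CPM in control to 39.3 ± 4.39 CPM in KO (SD, n = 3; log2 fold change -0.40, adjusted p = 0.00844 from the edgeR fit). It did not pass without KO library 2, when the count was 0, and without control library 1 the count of genes that fell was 3. IFNAR2, a chain of the type I interferon receptor, is named after its values were seen because it had the largest log2 fold change of the list in size. Its mean level was 1.19 CPM in control and 0.574 CPM in KO, with a log2 fold change of -1.05 and an interval of -2.12 to 0.03, and did not pass (adjusted p = 0.11). It shares 44.2% of its exonic bases with another gene on the same strand and 39.1% with IL10RB-DT on the other strand.

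For adaptors, kinases and factors downstream of the sensors, the share that fell was near that of all tested genes. The share that rose was larger but depended on single libraries. Of 23 genes 19 were tested, 9 rose (47.4%) and 4 fell (21.1%), beside 20.7% and 20.9% of all tested genes, and the median log2 fold change was 0.23. None was called in either direction (0 of 19), beside 5.45% higher and 7.14% lower of all tested genes. The largest rises were those of TRAF3, an adaptor of interferon induction (log2 fold change 0.68, adjusted p = 4.57e-05), DHX58, the RIG-I relative LGP2 (0.58, adjusted p = 0.00113), and TRIM25, a ubiquitin ligase for RIG-I (0.56, adjusted p = 0.000101). The largest falls were those of TANK, a TBK1-binding adaptor (-0.70, adjusted p = 7.98e-05), NLRX1, a mitochondrial inhibitor of signalling (-0.51, adjusted p = 0.00195), and RNF135, another ubiquitin ligase for RIG-I (-0.46, adjusted p = 0.0133). Without control library 2 or KO library 1, 5 rather than 9 of these genes rose.

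Of 15 genes that clear or edit nucleic acids, 13 were tested, 4 rose (30.8%) and 2 fell (15.4%), beside 20.7% and 20.9% of all tested genes, with a median log2 fold change of 0.11. At this threshold the shares lay near those of all genes. Called higher were 2 of the 13 (15.4%), SAMHD1 and RNASEH2A, and called lower 0. Of all tested genes, 5.45% were called higher and 7.14% lower. SAMHD1, a dNTP hydrolase mutated in an inherited interferon disorder, rose from 51.7 ± 7.29 CPM to 128 ± 7.96 CPM (SD, n = 3; log2 fold change 1.31, adjusted p = 1.24e-07 from the edgeR fit). RNASEH2A and RNASEH2C, subunits of the enzyme that removes RNA from RNA:DNA hybrids, had log2 fold changes of 1.40 (adjusted p = 0.0391) and 0.47 (adjusted p = 0.00261), the former from 6, 8 and 13 counts in control and 20, 28 and 27 in KO. RNASEH2A entered the test only through its KO libraries, and with at least 10 counts in every library 3 rather than 4 genes of the list rose. SLC19A1, a folate carrier that also imports cyclic dinucleotides, and RNASET2, a lysosomal RNase, fell (log2 fold changes -0.47 and -0.46, adjusted p = 0.0499 and 0.0189), and neither fall remained without control library 2 or without KO library 3. Without control library 2 or KO library 2, 2 genes rather than 4 rose. SLC19A1 shares 14.0% of its exonic bases with COL18A1 on the other strand, which measured 81.8 CPM in control and 63.8 CPM in KO. RNASEH2C shares 28.2% with KAT5 on the other strand. Strands were not separated in these libraries, so the counts of these pairs are not fully separate.

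Of 58 further interferon-stimulated genes, 55 were tested, 26 rose and 10 fell, with a median log2 fold change of 0.29. Called higher were 8 (14.5%) and called lower 5 of the 55, beside 5.45% and 7.14% of all tested genes. The largest rises were those of TNFSF10, the death ligand TRAIL (log2 fold change 2.27, adjusted p = 0.00117), HERC5, the main ligase for ISG15 (1.58, adjusted p = 4.19e-08), and HERC6 (1.49, adjusted p = 1.22e-07). The largest falls were those of APOL3 (-1.76, adjusted p = 1.53e-06), IFITM10 (-1.67, adjusted p = 0.0371) and SLFN5 (-1.53, adjusted p = 5.19e-09). TNFSF10 and IFITM10 rest on few counts, 12, 14 and 6 in control and 49, 81 and 35 in KO for TNFSF10 and 19, 14 and 26 in control and 11, 4 and 4 in KO for IFITM10. Each entered the test only through the group where it was higher, so their place among the largest changes is no finding about the list. IFITM10 also shares 22.2% of its exonic bases with AC068580.4 on the same strand. Interferon-stimulated genes outside the 39 were thus higher in 47.3% and lower in 18.2% of those tested. The shares were 73.7% and 7.89% among the 39 and 20.7% and 20.9% among all tested genes. Both lists were chosen with earlier results of these data known, so these shares describe the lists and do not test them.

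**Figure D3:**
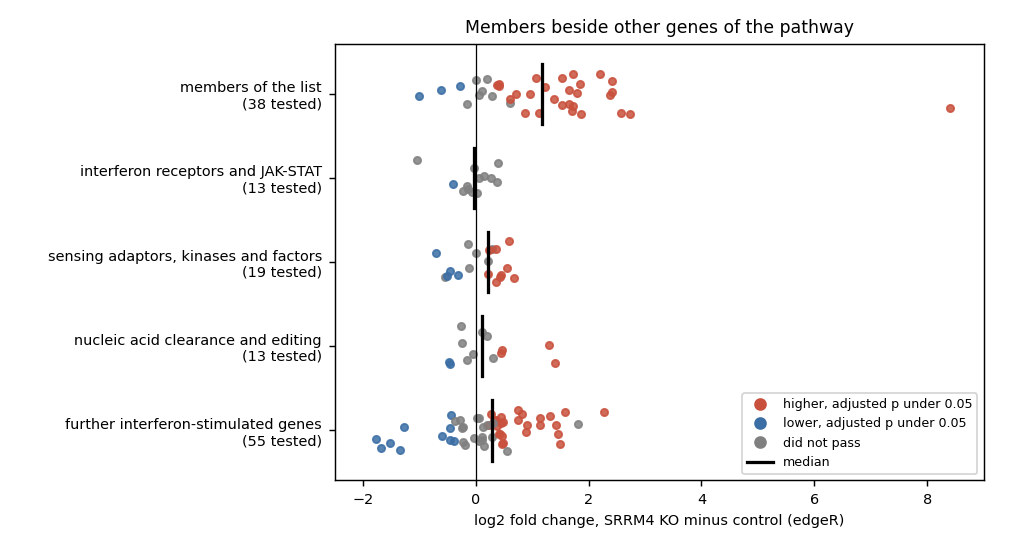
Log2 fold change of each tested gene, SRRM4 KO minus control, for the members of the list of 39 genes and for the other lists of the pathway, with the number tested in brackets. Red points rose, blue points fell, grey points did not pass and black bars mark the medians. The median is 1.18 for the members and lies between -0.04 and 0.29 for the other lists.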

How the data were processed

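The values are the read counts of each gene, deposited by the authors as integers and not normalized. Their processing notes name HISAT2 2.0.5, featureCounts 1.5.0-p3 and DESeq2, while settings and genome build were not given in the sources used here. All 58735 gene IDs were found in GENCODE 29 (GRCh38), 58724 with the same start and end. Samples were grouped by title and genotype. The counts were fitted with edgeR 4.0.16 in R 4.3.3 (TMM, filterByExpr, prior count 0.125, quasi-likelihood test, Benjamini-Hochberg over 15341 genes). The procedure was tested on simulated data. The SE is the log2 fold change over the root of F, and intervals are 95%. The alternatives were other normalizations, filters, fold tests and prior counts, DESeq2 1.42.0, a chromosome-median correction, a replicate block and leaving out each library. Members and lists were chosen with earlier results of these data known. Every member that passed is given per library, and other lists by their 3 largest changes in each direction. Promoters are RefSeq sequences (GRCh38.p14). Exonic overlaps come from GENCODE 29. In non-stranded libraries an overlap on either strand leaves reads ambiguous. Of the 39 genes, 13 share exonic bases with another gene, 4 of them on the same strand. The largest shares on the other strand were those of XAF1 (38.3%, PRAL), IRF1 (22.0%, C5orf56) and IFITM3 (21.3%, AC136475.5). One gene of the pathway lists is not reported here by name.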

Additional observations from a re-analysis of the deposited data

How the results depend on the processing

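The counts for the 39 genes held under nearly all alternatives: 27 to 30 rose, 2 to 3 fell, and 20 to 22 were called higher. The exception was a test against a log2 fold change of 1 (glmTreat), in which 16 passed higher and 0 lower and DDX58, IRF9, IFIT2, PARP9 and IFI27 lost their calls. Of 569 comparisons of a single gene with an alternative, 533 kept direction and side of the threshold, 24 lost the threshold, 4 gained it and 8 changed sign. One gene, ISG20, was called lower with upper-quartile normalization, with at least 10 counts in every library and after subtraction of the chromosome median (1 each, beside 0), and 0 to 1 when 1 library was left out. The median log2 fold change was 1.29 after subtraction of the chromosome median and 1.10 to 1.3 when 1 library was left out. The chromosome medians over tested genes ran from -0.34 on chromosome 18 to 0.32 on chromosome X. Among the receptors and JAK-STAT genes, 1 rose without a filter, and 0 to 1 rose and 0 to 3 fell when 1 library was left out. For the adaptors 5 to 9 rose when 1 library was left out. In the clearance and editing list, 1 gene fell without a filter, with DESeq2 and with the replicate block, and 2 to 4 rose and 0 to 2 fell when 1 library was left out. Of the further interferon-stimulated genes, 25 rose and 13 fell with upper-quartile normalization. With at least 10 counts in every library 25 rose and 12 fell. Without control library 1, 31 rose and 13 fell, and without control library 2 or control library 3, 23 rose and 8 fell. The log2 fold change of SAMD9L, which did not pass, was -0.020 with upper-quartile normalization, -0.0067 with at least 10 counts in every library, and it ran from -0.073 to 0.13 when 1 library was left out, below 0 without control library 2, control library 3, KO library 1 or KO library 3. That of XAF1 ran from -0.0040 to 0.14 when 1 library was left out, below 0 without control library 3, and was -0.14 after subtraction of the chromosome median. The cause was not tested. Upper-quartile normalization moved the split of all tested genes from 3171 higher and 3213 lower to 2955 and 3470.

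The replicate numbers did not pair the libraries, since the correlations of same-numbered libraries were -0.055, 0.083 and -0.053. With the replicate number as a block, 28 of the 39 genes rose, 2 fell and 21 were called higher, with a median log2 fold change of 1.18. Depth limits AIM2 and the interferon genes, which were at or near 0 counts.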
